A study of Mus musculus with 8 samples.

Results

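Collagens are the main structural proteins of the extracellular matrix, and the genes described here are all those whose mouse symbol is Col, a number, a and a number. They were chosen by symbol and not by any measured value, as transcript clusters with that single symbol in the platform annotation, and gave 42 genes of the 30738 tested, each with 1 cluster. By class, 11 encode fibrillar chains, 6 encode chains of type IV collagen, the network collagen of basement membranes, and 25 encode other collagens. A further 2 clusters that carry a second symbol beside Col7a1 or Col6a4 were not analysed here.

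The arrays measured total RNA of primary mouse ependymal cultures, differentiated from radial glial progenitors for 2 weeks in medium with 2% FBS. By their titles, 4 arrays are of samples with EGF (epidermal growth factor) and 4 of untreated samples. The sample records give EGF at 20 ng/ml from the start of differentiation, and the same medium for untreated samples. The source names of the same samples read MLN4924 in place of EGF and DMSO in place of untreated, a conflict left unsettled by the labels, so "EGF" means the arrays with that title. The labels give no strain or age and do not say that replicates came from separate cultures, so the p-values speak only to the spread among these 8 arrays, part of which may be technical.

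A collagen molecule is built of 3 chains wound into a helix. Fibrillar chains (types I, II, III, V, XI, XXIV and XXVII) form banded fibres and are made mostly by fibroblasts and similar cells, whereas type IV chains form the sheet on which epithelia, endothelia and glial endfeet rest. FACITs coat fibrils, beaded filament collagens (type VI) form a fine network, multiplexins sit at basement membranes, short-chain collagens form lattices, and transmembrane collagens stay at the cell surface. In the brain, fibrillar collagens are known mainly from meninges and vessels, and the ventricular wall carries basement membrane structures called fractones.

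The labelled cell type was checked against markers. The 12 ependymal markers all fell, with a mean log2 signal of 6.35 to 6.54 in EGF arrays, against 11.23 to 11.75 in untreated arrays. For this list and those that follow, 20.7% of all genes fell and 39.7% rose. Of 6 choroid plexus markers 3 fell and 0 rose (mean log2 signal 4.75 to 5.48 in EGF, against 6.04 to 7.13 in untreated arrays). Those that fell were Kcnj13 (-4.13), Folr1 (-2.44) and Ttr (-3.1, with overlapping groups), whereas Otx2, Clic6 and Kl did not pass. Of 6 astrocyte markers 4 rose and 2 fell (11.87 to 12.07, against 11.14 to 11.23). The largest rises were of Aldh1l1 (3.36) and Slc1a2 (2.37), and the falls were of Aqp4 (-1.31) and Gfap (-0.49). After a further quantile normalization, centring and cyclic loess, 2, 3 and 3 choroid plexus markers fell. Of the astrocyte markers 4, 3 and 3 rose and 2 fell each time, and all 12 ependymal markers fell each time. The part of these cell types in the collagen changes was not tested. With EGF the 4 arrays had median log2 signals of 4.71 to 4.82, against 4.56 to 4.6 in the untreated arrays, so the deposited values are not on a common median. Over all genes the median change was 0.17 on the log2 scale, and small rises near that value have no settled direction. Cultures were measured in bulk, so fewer cells of a type and less RNA per cell cannot be told apart.

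Promoter sequences of RefSeq (GRCm38.p6) were found for 33 of the 42 genes. The 250 bases upstream of the annotated start, 5′ to 3′ on the gene's strand, are shown for 4 of the genes that fell at least 2-fold and for the head-to-head pair Col4a5 and Col4a6, which rose together. Col4a2, which also fell at least 2-fold, and its head-to-head neighbour Col4a1 have windows that are not shown. Both of these windows hold a CCAAT match. Capitals mark matches on either strand to the TATA box (TATAAA), the CCAAT box, the GC box (GGGCGG), the AP-1 site (TGACTCA) or the CAGA box (CAGACA). Coordinates are chr6:4505368-4505617 (+ strand) for Col1a2, chr1:45311288-45311537 (+) for Col3a1, chr10:76726045-76726294 (-) for Col6a1, chr16:57754738-57754987 (-) for Col8a1, chrX:141475169-141475418 (+) for Col4a5 and chrX:141474077-141474326 (-) for Col4a6.
Col1a2: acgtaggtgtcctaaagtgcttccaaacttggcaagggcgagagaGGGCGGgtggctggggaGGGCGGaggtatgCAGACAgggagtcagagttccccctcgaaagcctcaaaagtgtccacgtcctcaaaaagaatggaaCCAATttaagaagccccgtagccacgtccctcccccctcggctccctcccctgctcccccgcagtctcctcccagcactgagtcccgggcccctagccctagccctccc
Col3a1: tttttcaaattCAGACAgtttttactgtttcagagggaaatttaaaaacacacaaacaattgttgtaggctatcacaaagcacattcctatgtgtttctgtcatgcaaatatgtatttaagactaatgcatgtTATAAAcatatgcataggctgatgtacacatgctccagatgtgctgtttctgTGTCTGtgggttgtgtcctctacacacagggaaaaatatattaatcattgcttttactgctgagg
Col6a1: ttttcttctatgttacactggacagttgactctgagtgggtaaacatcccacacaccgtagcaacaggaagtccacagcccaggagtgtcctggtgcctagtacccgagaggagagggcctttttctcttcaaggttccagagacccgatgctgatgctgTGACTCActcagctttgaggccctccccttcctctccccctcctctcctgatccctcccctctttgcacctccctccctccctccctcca
Col8a1: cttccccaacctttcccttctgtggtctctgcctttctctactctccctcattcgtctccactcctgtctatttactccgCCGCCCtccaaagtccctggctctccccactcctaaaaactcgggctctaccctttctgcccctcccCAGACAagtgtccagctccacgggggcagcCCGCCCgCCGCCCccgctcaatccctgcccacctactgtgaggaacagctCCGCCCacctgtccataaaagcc
Col4a5: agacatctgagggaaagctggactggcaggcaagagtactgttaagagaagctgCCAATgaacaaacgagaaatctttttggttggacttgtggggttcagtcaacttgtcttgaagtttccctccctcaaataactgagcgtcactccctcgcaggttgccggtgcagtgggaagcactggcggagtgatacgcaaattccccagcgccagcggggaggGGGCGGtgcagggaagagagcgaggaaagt
Col4a6: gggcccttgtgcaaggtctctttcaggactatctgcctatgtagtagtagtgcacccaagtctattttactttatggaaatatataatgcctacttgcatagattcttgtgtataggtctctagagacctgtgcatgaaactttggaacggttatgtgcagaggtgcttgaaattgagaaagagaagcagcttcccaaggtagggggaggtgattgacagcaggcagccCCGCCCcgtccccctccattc

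The windows differ in base composition. Col3a1 was the most AT-rich of those shown, with 35.2% G and C, against 62.0% for Col1a2, 60.8% for Col8a1, 56.0% for Col6a1, 54.0% for Col4a5 and 47.6% for Col4a6. TATAAA, the core of the TATA box, occurred in Col3a1 alone of the 6 windows. CCAAT occurred in Col1a2 and Col4a5, and TGACTCA, the core of an AP-1 site, in Col6a1 alone. Over all 36 promoter entries of the collagen genes, GGGCGG, the GC box, was present in 20 (55.6%), against 32.7% of all 32851 promoter windows. The other shares were 13.9% of collagen against 12.4% of all windows for TATAAA, 30.6% against 33.8% for CCAAT, 22.2% against 17.1% for CAGACA and 2.78% against 4.46% for TGACTCA. These are letter matches, which may overlap each other, and not measured binding.

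Both directions of change were common among the collagen genes with EGF. In limma with Benjamini-Hochberg adjustment over all genes, 14 of 42 rose (33.3%), 14 fell (33.3%) and 14 stayed above the threshold of 0.05, where 60.3% of all genes tested were called (39.7% rose and 20.7% fell). At least 2-fold, 2 collagen genes rose (4.76%), against 6.25% of all genes, and 7 fell (16.7%), against 7.42% of all genes (13.7% in either direction). The median log2 fold change was -0.0038 over the 42 genes and 0.17 over all genes. Other scalings shifted this split towards falls: 7 rose and 20 fell after a further quantile normalization, 6 rose and 22 fell once every array was centred on its own median, and 6 rose and 23 fell after cyclic loess. The same 6 genes rose (Col12a1, Col16a1, Col18a1, Col4a5, Col4a6 and Col9a3) and the same 14 fell under the deposited values and all 3 other scalings.

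The spread of signals sets how far these genes can be read. A mean log2 signal of 6 in at least 1 group was reached by 16 collagen genes, and the other 26, with means under 6 in both groups, changed by -0.30 to 0.31 on the log2 scale. EGF arrays did not overlap untreated arrays in 29 collagen genes, 15 higher and 14 lower, where 54% of all genes did not overlap (34% higher and 19.9% lower).

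**Figure D1:**
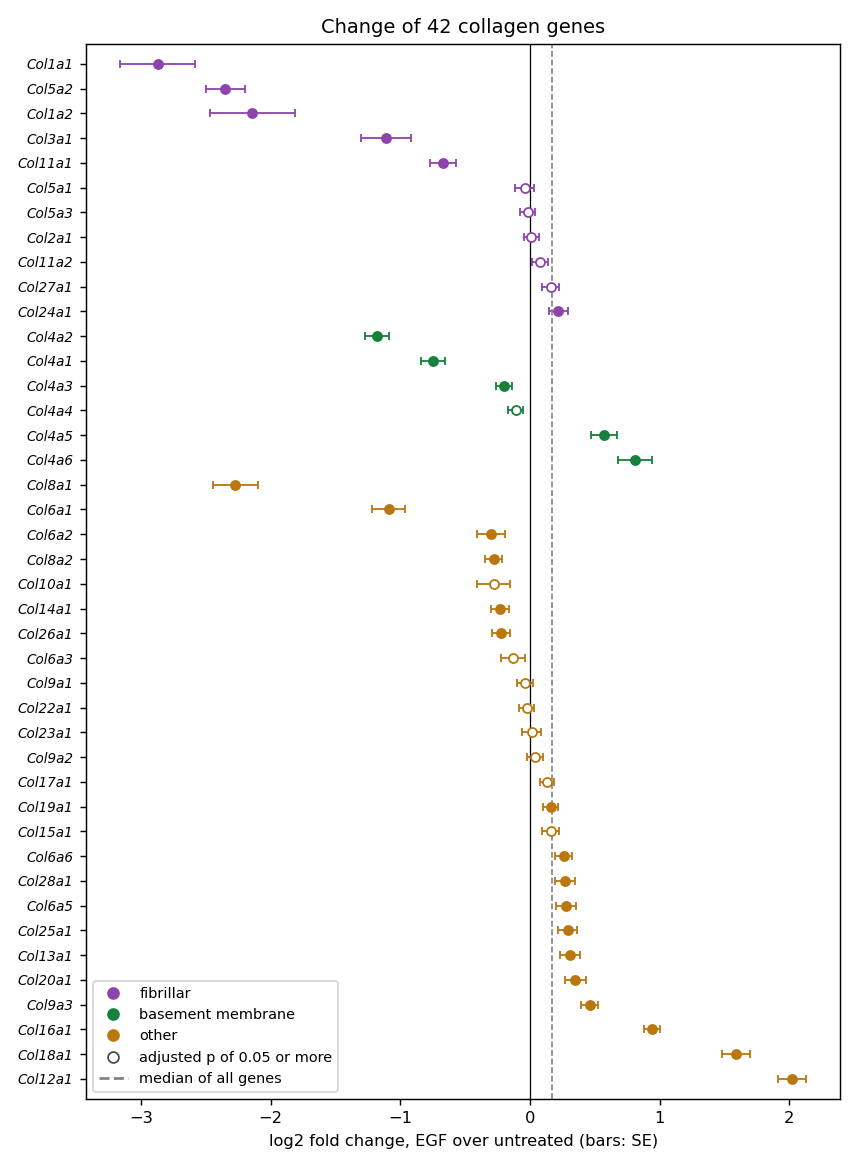
Log2 fold change (EGF over untreated, x axis) of each of the 42 collagen genes by class, as points with SE bars, with open points for genes with an adjusted p of 0.05 or more. Col1a1 (-2.87) lies at the low end and Col12a1 (2.02) at the high end, and the dashed line marks the median of all genes (0.17).

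Fibrillar collagen genes had more falls than rises with EGF. Of 11 measured, 5 fell (45.5%), 1 rose (9.09%) and 5 missed the threshold (median change -0.04, log2). Of all genes, 20.7% fell and 39.7% rose (median 0.17). The 5 that fell were Col1a1, Col5a2, Col1a2, Col3a1 and Col11a1, and these calls held under each scaling tried and when any single array was left out. The single rise, of Col24a1, did not hold under the other scalings.

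Col1a1 encodes the main chain of type I collagen, the fibre of skin, tendon and scar. Its log2 signals were 6.78, 6.82, 6.89 and 7.0 in EGF replicates 1 to 4, against 10.33, 9.47, 8.85 and 10.32 in untreated replicates 1 to 4. Every EGF array lay below every untreated array, and the untreated arrays spread far more than the EGF arrays (SD of 0.72 against 0.096). The gene fell by 2.87 ± 0.29 on the log2 scale (SE), a 7.31-fold lower signal, with a limma adjusted p = 1.27e-05.

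Col1a2 encodes the partner chain of type I collagen. It had 5.89, 5.78, 5.94 and 5.98 in EGF arrays, against 8.73, 7.46, 7.20 and 8.77 in untreated arrays (log2 signal). Untreated replicates 1 and 4 were high and 2 and 3 lower, as for Col1a1, and the groups did not overlap. Col1a2 fell by 2.14 ± 0.33 (log2, SE; limma adjusted p = 0.000295).

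Col3a1, the chain of the type III collagen of blood vessels and reticular tissue, had 5.52, 5.50, 5.61 and 5.60 in EGF arrays, against 6.99, 6.53, 6.07 and 7.06 in untreated arrays (log2 signal). Untreated replicates 1 and 4 were again the highest and replicate 3 the lowest. Its signal fell by 1.11 ± 0.19 (log2, SE; limma adjusted p = 0.000611).

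Col5a2 encodes a chain of type V collagen, which helps start type I fibrils and limits their width. It had 7.70, 8.02, 7.67 and 7.82 in EGF arrays, against 10.58, 10.27, 9.90 and 9.87 in untreated arrays (log2 signal). Here untreated replicates 1 and 2 were the highest, unlike type I. The fall was 5.11-fold (-2.35 ± 0.15 log2, SE; limma adjusted p = 5.26e-07). Col5a1, the chain that partners Col5a2, had 5.30, 5.29, 5.33 and 5.34 in EGF arrays, against 5.42, 5.38, 5.16 and 5.46 in untreated arrays. The groups overlapped and Col5a1 did not pass (95% interval of the log2 fold change -0.21 to 0.13), though it was called lower after centring and loess (-0.23 and -0.22, limma adjusted p = 0.0259 and 0.0241).

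Col11a1, a chain of the type XI collagen best known from cartilage, had 7.12 to 7.30 in EGF arrays, against 7.61 to 8.08 in untreated arrays (log2 signal). It fell by 0.67 ± 0.10 (log2, SE; limma adjusted p = 0.000279), with no overlap between groups. Its partner chain Col11a2 did not pass, at 4.81 ± 0.062 in EGF and 4.73 ± 0.05 in untreated arrays (mean log2 ± SD, n = 4 each). The cartilage collagen gene Col2a1, as well as Col5a3 and Col27a1, did not pass either, with means of 4.93 to 5.45 in both groups. Under other scalings Col2a1 was called lower in all 3 (-0.16 to -0.18, limma adjusted p = 0.0182 to 0.033) and Col5a3 in centring and loess (-0.21 and -0.19, adjusted p = 0.0145 and 0.00954). Col27a1 was called under none of the scalings. It was called higher with array weights (0.17, limma adjusted p = 0.0336) and without EGF replicate 2 or untreated replicate 4 (0.19 each, adjusted p = 0.0324 and 0.0334).

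**Figure D2:**
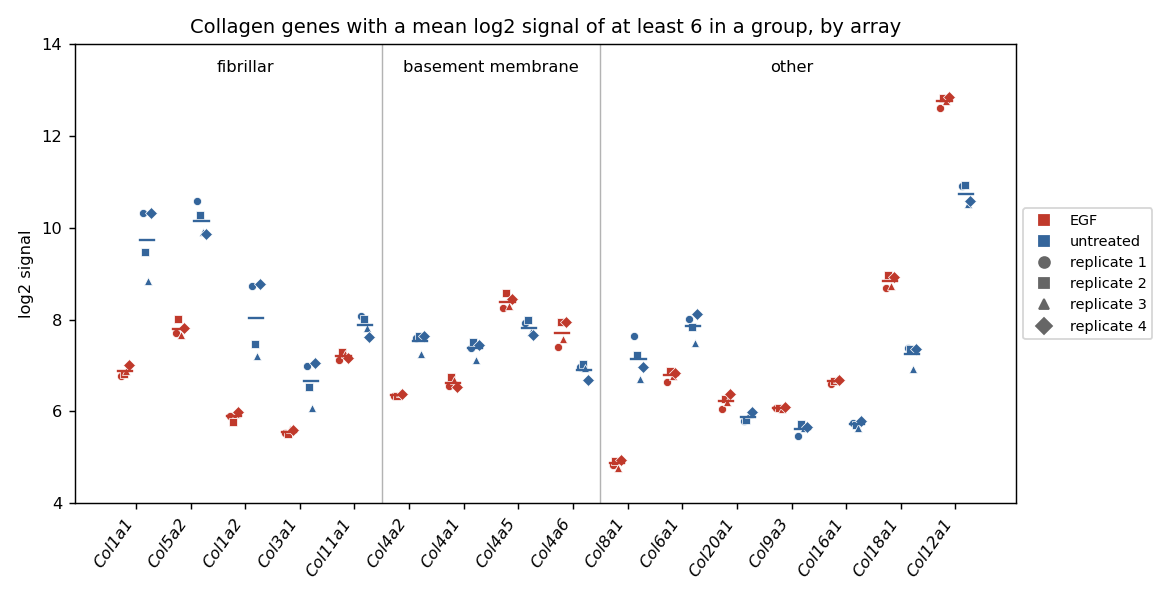
Log2 signal (y axis) of the 16 collagen genes with a mean of at least 6 in a group, by array, with EGF left of untreated and a line at each group's mean. Untreated arrays of Col1a1 spread from 8.85 to 10.33 and all lie above the EGF arrays (6.78 to 7.0), while Col12a1 and Col18a1 lie higher in EGF arrays.

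The order of the untreated arrays recurred across genes. Untreated replicates 1 and 4 both lay above replicates 2 and 3 in 21 of 42 collagen genes (50.0%), among them Col1a1, Col1a2, Col3a1 and Col6a1, and in 16.8% of all genes. By class, this order held in 8 of 11 fibrillar, 0 of 6 type IV and 13 of 25 other collagen genes. Among collagen genes with a mean of 6 or more in a group it held in 6 of 16 (37.5%). Of the fibrillar genes with this order, Col11a2, Col24a1, Col2a1, Col5a1 and Col5a3 had means under 6 in both groups. The brighter Col5a2 and Col11a1 did not show it. It was noticed in type I collagen before it was counted, so the count is a description and has no test.

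Markers of fibroblast, meningeal and mural cells, the textbook sources of fibrillar collagen, moved beside these genes in part. Of 20 such markers, 9 fell (45.0%), 5 rose (25.0%) and 6 had no call, where 20.7% of all genes fell and 39.7% rose. After quantile normalization, centring and cyclic loess, 2, 1 and 1 of them rose, and 9 fell each time. Their mean log2 signal was 6.01 to 6.05 in EGF arrays, against 6.43 to 6.83 in untreated arrays. Untreated replicates 4 and 1 had the highest list means (6.83 and 6.74). Dcn, the fibroblast proteoglycan decorin, had 4.94, 5.08, 5.02 and 5.13 in EGF arrays, against 7.51, 6.90, 5.81 and 8.69 in untreated arrays. Its untreated replicates 1 and 4 both lay above replicates 2 and 3, as for type I collagen. Of the other markers that fell, Pdgfrb, Lum and Aldh1a2 had this order, and Postn, Acta2, Tagln, Anpep and Prrx1 did not. Over the list it held in 12 of 20 markers, including some that rose or had no call. Postn (5.06 to 5.39 in EGF, against 8.55 to 9.28 in untreated arrays) and Pdgfrb (7.54 to 7.87, against 9.61 to 10.51) were lower with EGF, whereas Foxc1, a meningeal factor, was higher (6.54 to 6.78, against 5.75 to 6.09). No marker is listed at 0, but Kcnj8, Abcc9, Slc22a6, Foxd1, Twist1, Crabp2 and Slc6a13 lay below every array median. The endothelial markers gave 3 rises (33.3%) and 2 falls (22.2%) of 9, near the shares of all genes, with mean log2 signals of 4.44 to 4.52 in EGF and 4.42 to 4.68 in untreated arrays. The falls were of Kdr (5.02 to 5.17 in EGF, against 6.21 to 6.67 in untreated arrays) and Cdh5 (4.66 to 4.83, against 4.87 to 6.55). The rises were of Cldn5 (0.52, log2), Pecam1 (0.23, with overlapping groups) and Tie1 (0.19), and Cldn5 and Tie1 lay below every array median. Under each of the 3 other scalings, 1 endothelial marker rose and 2 fell. The part of any such cell type in the collagen changes was not tested.

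Type IV collagen genes changed in both directions. These 6 genes lie as 3 head-to-head neighbours, each with a shared promoter region. In RefSeq (GRCm38.p6) the starts of Col4a1 and Col4a2 on chromosome 8 lie 21 bases apart on opposite strands, and those of Col4a5 and Col4a6 on chromosome X lie 1343 bases apart. Col4a1 and Col4a2 fell, Col4a5 and Col4a6 rose, and Col4a3 and Col4a4 had low signals. In counts, 3 of 6 fell (50.0%), 2 rose (33.3%) and 1 missed the threshold (median change -0.15, log2). Of all genes, 20.7% fell and 39.7% rose (median 0.17).

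Col4a1 and Col4a2 encode the chains found in nearly all basement membranes. Col4a2 had 6.33, 6.33, 6.41 and 6.37 in EGF arrays, against 7.60, 7.64, 7.26 and 7.65 in untreated arrays (log2 signal). Col4a1 had 6.55, 6.74, 6.68 and 6.53 in EGF arrays, against 7.39, 7.51, 7.13 and 7.45 in untreated arrays. Untreated replicate 3 was the lowest of its group for both, yet above all EGF arrays. Col4a2 fell by 1.18 ± 0.091 (log2, SE; limma adjusted p = 1.7e-06) and Col4a1 by 0.75 ± 0.093 (adjusted p = 6.15e-05).

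Col4a5 and Col4a6 encode the chains of the type IV network of epithelial and smooth muscle basement membranes. Col4a6 had 7.41, 7.95, 7.57 and 7.94 in EGF arrays, against 6.97, 7.03, 6.95 and 6.69 in untreated arrays (log2 signal). Col4a5 had 8.25, 8.58, 8.30 and 8.44 in EGF arrays, against 7.93, 7.98, 7.73 and 7.66 in untreated arrays. EGF replicates 2 and 4 were the highest for both genes, and the groups did not overlap. Col4a6 rose by 0.81 ± 0.13 (log2, SE; limma adjusted p = 0.00045) and Col4a5 by 0.57 ± 0.099 (adjusted p = 0.000688).

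Col4a3 and Col4a4, known from the kidney filter, averaged 4.6 ± 0.066 and 4.90 ± 0.057 in EGF arrays, against 4.79 ± 0.065 and 5.01 ± 0.022 in untreated arrays (mean log2 ± SD, n = 4). Col4a3 passed at -0.20 ± 0.063 (log2, SE; limma adjusted p = 0.0229) and Col4a4 did not (adjusted p = 0.133), but under the 3 other scalings Col4a4 was called lower too (-0.27 to -0.29, adjusted p = 0.000681 to 0.00156). The call of Col4a3 was lost without EGF replicate 1 or 4 or untreated replicate 1 or 2 (limma adjusted p = 0.0515, 0.0591, 0.0614 and 0.0585).

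Of the 25 other collagen genes, 11 rose (44.0%), 6 fell (24.0%) and 8 missed the threshold (median change 0.13, log2), shares near those of all genes (39.7% and 20.7%), with the largest rises in Col12a1 and Col18a1 and the largest falls in Col8a1 and Col6a1. After quantile normalization, centring and cyclic loess, 5, 4 and 4 of them rose and 10, 10 and 11 fell.

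The FACIT genes gave 5 rises, 1 fall and 3 genes without a call. Col12a1 encodes type XII collagen, a large fibril-coating collagen of tissues under mechanical load and of wounds. It had 12.60, 12.83, 12.75 and 12.85 in EGF arrays, against 10.90, 10.94, 10.52 and 10.59 in untreated arrays (log2 signal). All EGF arrays lay above all untreated arrays, and the signal was 4.06-fold higher (2.02 ± 0.11 log2, SE; limma adjusted p = 1.19e-07). Col16a1, a FACIT found near fibrils and basement membranes, averaged 6.66 ± 0.051 in EGF and 5.72 ± 0.072 in untreated arrays (mean log2 ± SD, n = 4 each) and rose by 0.94 ± 0.062 (SE; limma adjusted p = 5.62e-07). Col9a3 rose by 0.46 ± 0.068 (log2, SE), and its partner chains Col9a1 and Col9a2 did not pass. Col9a1 was called lower under the 3 other scalings (-0.21 to -0.23, limma adjusted p = 0.00452 to 0.00894) and Col9a2 under loess (-0.15, adjusted p = 0.043). The rise of Col20a1 (0.35) was lost after centring and after loess, and that of Col19a1 (0.16) under all 3 other scalings. Col19a1 also lost its call without EGF replicate 1, 3 or 4 or untreated replicate 1, 2 or 3 (limma adjusted p = 0.0511 to 0.0881). Col14a1 fell by 0.23 ± 0.071 from a low signal. Col22a1 did not pass (-0.025), but was called lower under the 3 other scalings (-0.21 to -0.22, limma adjusted p = 0.00331 to 0.0105).

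Col18a1 encodes type XVIII collagen, a multiplexin of basement membranes whose end fragment is endostatin and which is known from fractones. It had 8.69, 8.98, 8.74 and 8.93 in EGF arrays, against 7.37, 7.35, 6.92 and 7.36 in untreated arrays (log2 signal). The groups were more than 1 log2 unit apart, and untreated replicate 3 stood below the others of its group. The signal was 3.00-fold higher with EGF (1.59 ± 0.11 log2, SE; limma adjusted p = 1.07e-06). The other multiplexin gene, Col15a1, had 4.24 ± 0.082 in EGF and 4.08 ± 0.049 in untreated arrays (mean log2 ± SD, n = 4 each) and did not pass.

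Col8a1 encodes the short-chain collagen of vascular and corneal membranes. It had 4.84, 4.93, 4.76 and 4.94 in EGF arrays, against 7.65, 7.23, 6.71 and 6.96 in untreated arrays (log2 signal). The EGF values lie near the array medians, so the 4.82-fold fall (-2.27 ± 0.17 log2, SE; limma adjusted p = 1.32e-06) can be understated. Its partner chain Col8a2 had 5.19, 5.15, 5.32 and 5.24 in EGF arrays, against 5.58, 5.43, 5.50 and 5.49 in untreated arrays, and fell by 0.28 ± 0.064 (log2, SE; limma adjusted p = 0.00433). Col10a1, of growth plate cartilage, did not pass (-0.28), but was called lower under the 3 other scalings (-0.46 to -0.47, limma adjusted p = 0.013 to 0.0159) and without EGF replicate 4 (-0.37, adjusted p = 0.0279).

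Col6a1, a chain of the beaded filaments of type VI collagen, had 6.64, 6.89, 6.77 and 6.83 in EGF arrays, against 8.01, 7.83, 7.5 and 8.13 in untreated arrays (log2 signal). The groups did not overlap, and untreated replicates 4 and 1 were the highest. It fell by 1.09 ± 0.13 (log2, SE; limma adjusted p = 3.84e-05). Col6a2, its neighbour and partner, had 5.25, 5.16, 5.30 and 5.22 in EGF arrays, against 5.68, 5.40, 5.29 and 5.77 in untreated arrays, and the groups overlapped at untreated replicate 3. Its fall of 0.30 ± 0.11 (log2, SE; limma adjusted p = 0.0311) was lost without EGF replicate 1, 2 or 4 or untreated replicate 1 or 4 (adjusted p = 0.0528, 0.0682, 0.0605, 0.0798 and 0.0774). Col6a3 did not pass (-0.13), but was called lower under the 3 other scalings (-0.31 to -0.32, limma adjusted p = 0.00769 to 0.0103). Col6a5 and Col6a6 rose by 0.28 and 0.26 with signals below 5 in every array, which did not hold under the other scalings.

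The remaining genes had low signals. The transmembrane collagen genes Col13a1 and Col25a1 rose by 0.31 and 0.29 (log2) and Col28a1 by 0.27, all lost under each of the 3 other scalings. Col17a1 and Col23a1 did not pass. Col26a1 fell by 0.22 ± 0.07 (log2, SE), a call lost without untreated replicate 2 or 3 (limma adjusted p = 0.0636 and 0.0606). The rise of Col24a1 by 0.22 was lost without EGF replicate 3 or untreated replicate 2 or 3 (adjusted p = 0.0625, 0.0574 and 0.0663).

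Next, 9 pairs of chains of the same collagen type were compared for unequal change. For each array the log2 difference of the pair was taken, and EGF was set against untreated with a two-sided exact permutation test, adjusted over the 9 pairs; the smallest p that 4 against 4 arrays allow is 0.0286. In 7 pairs the change was called unequal, each at that smallest p (exact p = 0.0286, adjusted p = 0.0367). Their shared adjusted p depends on how many pairs reached the limit, and not on the size of each gap. The share of other gene pairs that would pass was not computed, and 54% of all single genes did not overlap between groups. Col1a1 changed by 0.73 ± 0.11 (log2, SE) more than Col1a2 in the downward direction, with pair differences of 0.89 to 1.04 in EGF arrays, against 1.55 to 2.01 in untreated arrays. Col4a1 and Col4a2 differed by 0.43 ± 0.058 in their fall. The widest gaps were between Col5a1 and Col5a2 (2.31 ± 0.18) and between Col8a1 and Col8a2 (-2.0 ± 0.2), in each of which the chain with the smaller change had a signal under 6. Col6a1 with Col6a2 (-0.78 ± 0.088) and Col11a1 with Col11a2 (-0.75 ± 0.12) also changed unequally, as did Col9a1 with Col9a2, by -0.078 ± 0.023. Col6a2, Col11a2, Col9a1 and Col9a2 likewise had mean signals under 6 in both groups. The pairs Col4a3 with Col4a4 (-0.09 ± 0.034) and Col4a5 with Col4a6 (-0.24 ± 0.085) did not pass (exact p = 0.0571). A signal near the array medians compresses change, and its part in these gaps was not tested.

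**Figure D3:**
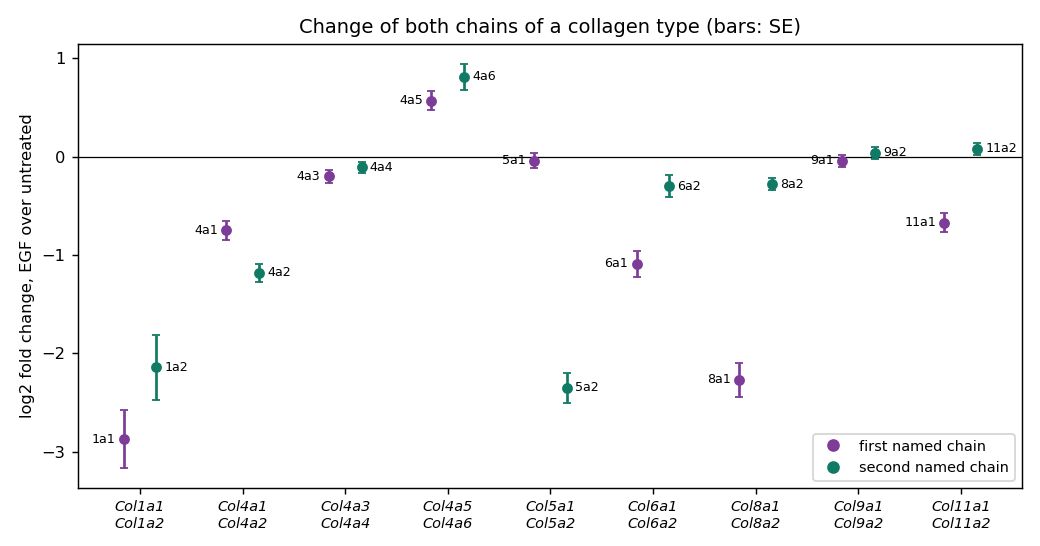
Log2 fold change (EGF over untreated, y axis, bars SE) of both chains of 9 collagen pairs (x axis). The points of Col4a5 and Col4a6 lie above 0 and those of Col4a1 and Col4a2 below it, and Col5a1 (-0.04) lies far from Col5a2 (-2.35).

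The authors' deposited table of group averages, which lists clusters with a difference of at least 1 on the log2 scale, gives a different account of several collagen genes. It holds 8 of the 42 genes. For Col12a1, Col18a1, Col4a5 and Col4a6 the authors' deposited table gives gf minus ctrl differences of 3.05, 3.12, 1.3 and 2.46, the direction of the arrays. For Col14a1 the authors' deposited table gives -1.02, also the direction of the arrays.

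Col4a1, Col4a2 and Col6a1 run the opposite way. The authors' deposited table gives 8.82 for gf and 7.14 for ctrl for Col4a1, 8.77 and 7.44 for Col4a2, and 10.56 and 8.13 for Col6a1, where these 3 genes were lower in the EGF arrays. Its gf average lay outside the range of the 4 EGF arrays in all 8 genes. Over its 4136 rows, the authors' deposited table and the arrays had the same direction in 3516 (85.0%), and both averages lay within the range of the arrays, with a tolerance of 0.01, in 135. Of the 9 collagen genes that changed at least 2-fold on the arrays, Col1a1, Col1a2, Col3a1, Col5a2 and Col8a1 are not among the rows of the authors' deposited table. The table therefore does not average the values used here, and neither the labels nor its header say which samples it averages. The directions of Col4a1, Col4a2 and Col6a1 hold for these arrays only.

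**Figure D4:**
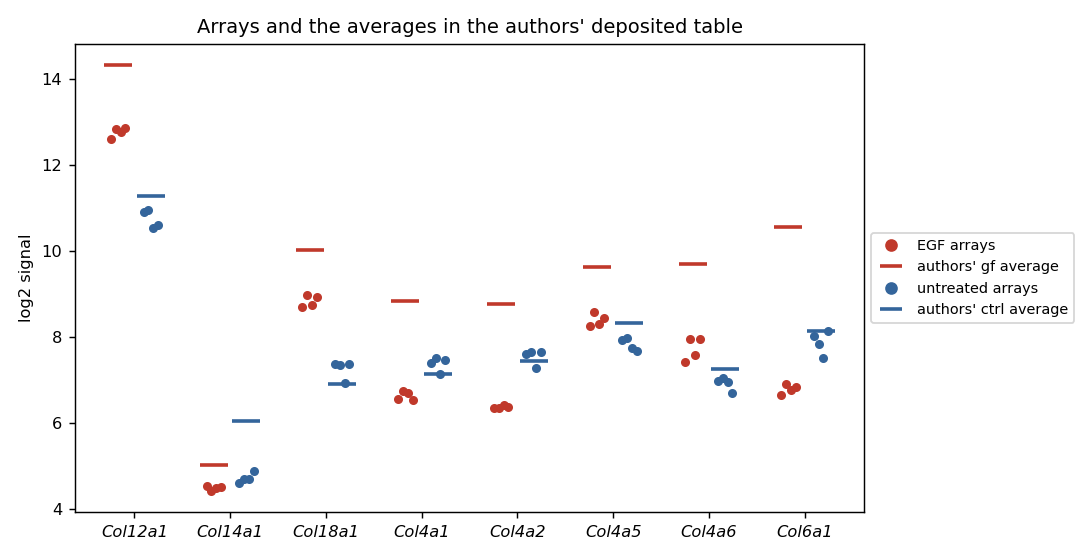
Log2 signal (y axis) of 8 collagen genes in each EGF array and each untreated array (points) and the gf and ctrl averages of the authors' deposited table (short horizontal lines). For Col4a1, Col4a2 and Col6a1 the gf line lies above the ctrl line, whereas the EGF points lie below the untreated points.

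Enzymes and helpers that build collagen were mostly higher with EGF, with exceptions inside several families. Of 36 listed genes of folding, hydroxylation, glycosylation, export, trimming and cross-linking, 31 were measured, of which 18 rose (58.1%), 10 fell (32.3%) and 3 had no call (median change 0.52, log2). All genes tested gave 39.7%, 20.7% and a median of 0.17. The median was 0.31, 0.33 and 0.40 after the 3 other scalings.

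Prolyl 4-hydroxylase, which hydroxylates proline so that the helix is stable, has 3 catalytic subunit genes, and they went different ways. P4ha1 had 14.37, 14.53, 14.56 and 14.55 in EGF arrays, against 12.07, 12.12, 12.16 and 12.17 in untreated arrays (log2 signal), and rose by 2.37 ± 0.065 (SE). P4ha2 had 9.05 to 9.21 in EGF arrays, against 6.68 to 7.02 in untreated arrays, and rose by 2.32 ± 0.082. P4ha3 had 10.09, 10.44, 9.81 and 10.05 in EGF arrays, against 14.44, 14.27, 14.67 and 14.42 in untreated arrays, a 20.4-fold fall (-4.35 ± 0.13 log2, SE). None of the 3 overlapped between groups, and each had a limma adjusted p of 6.42e-09 or less.

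Other modifying enzymes divided as well. P3h2, a prolyl 3-hydroxylase known to act on type IV collagen, averaged 10.07 ± 0.16 in EGF and 12.12 ± 0.14 in untreated arrays (mean log2 ± SD, n = 4 each) and fell by 2.05 ± 0.098 (SE). P3h4, a partner protein of the lysyl hydroxylase complex, rose by 2.16 ± 0.078, and Colgalt2, which adds galactose to hydroxylysine, by 1.88 ± 0.076. Plod2, the lysyl hydroxylase of collagen ends, did not pass (13.20 ± 0.026 in EGF and 13.08 ± 0.036 in untreated arrays; 95% interval of the log2 fold change -0.0022 to 0.24). Serpinh1, the collagen chaperone, fell by 0.22 ± 0.072, a call lost without EGF replicate 3 or 4 or untreated replicate 1 or 3 (limma adjusted p = 0.0591, 0.0601, 0.0676 and 0.0717) and with the mean of its clusters.

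Among the genes acting outside the cell, Adamts14, which removes the amino-terminal propeptide of fibrillar procollagens, had 10.87, 11.07, 10.65 and 10.92 in EGF arrays, against 6.55, 6.62, 6.54 and 6.41 in untreated arrays (log2 signal). This is a 20.4-fold rise (4.35 ± 0.092 log2, SE; limma adjusted p = 2.65e-10). Pcolce2, an enhancer of the proteinase that removes the other end, rose by 2.30 ± 0.097 (log2, SE). Lox, which cross-links collagen and elastin, had 7.25, 7.36, 6.98 and 7.54 in EGF arrays, against 10.40, 9.91, 9.73 and 11.12 in untreated arrays, and fell by 3.01 ± 0.27 (limma adjusted p = 4.72e-06). Its relative Loxl1, known for elastic fibres, rose by 1.82 ± 0.15 (adjusted p = 2.91e-06), with 11.77 to 12.14 in EGF arrays, against 9.77 to 10.52 in untreated arrays. For Lox, untreated replicates 4 and 1 were the highest, as for type I collagen.

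**Figure D5:**
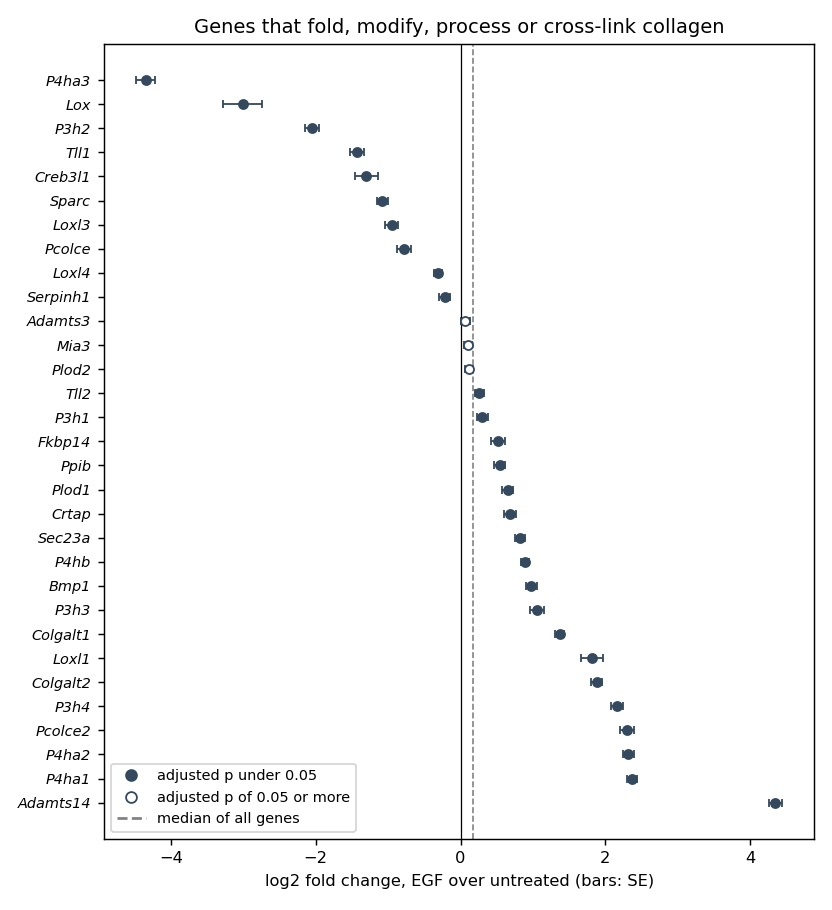
Log2 fold change (EGF over untreated, x axis, bars SE) of 31 genes that fold, modify, export, process or cross-link collagen, with open points for an adjusted p of 0.05 or more and a dashed line at the median of all genes. P4ha3 (-4.35) and Adamts14 (4.35) lie at the ends, 18 genes rose and 10 fell.

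Receptors and matrix partners of collagen were measured in 27 of 28 listed genes, of which 9 rose (33.3%), 14 fell (51.9%) and 4 had no call (median change -0.19, log2), where 39.7% of all genes rose and 20.7% fell (median 0.17). Several receptors for collagen rose. Mrc2, which takes up collagen for breakdown, had 9.06, 9.42, 9.17 and 9.09 in EGF arrays, against 6.08, 5.88, 5.65 and 6.24 in untreated arrays (log2 signal), and rose by 3.22 ± 0.13 (SE; limma adjusted p = 1.55e-08). Adgrg1, a receptor known to bind type III collagen at the brain surface, rose by 2.62 ± 0.10, and Itga2, the subunit of a collagen-binding integrin, by 2.52 ± 0.15. Fn1, the fibronectin gene, rose by 2.15 ± 0.15.

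Other receptors and the small proteoglycans of fibrils were lower. Fmod, fibromodulin, which binds fibrils and guides their growth, had 4.75, 4.68, 4.40 and 4.59 in EGF arrays, against 10.65, 10.29, 10.31 and 10.16 in untreated arrays (log2 signal). It fell by 5.75 ± 0.11 (SE; limma adjusted p = 1.91e-10) to values below the EGF array medians. Ddr2, a kinase receptor for fibrillar collagen, fell by 2.35 ± 0.084, Dcn by 2.19 ± 0.47 and Bgn, biglycan, by 1.67 ± 0.17. Lama2, a laminin chain, fell by 1.39 ± 0.09. Lair1, an inhibitory collagen receptor of immune cells, fell by 1.65 ± 0.079. Beside it, 7 of 8 microglial markers fell (87.5%, against 20.7% of all genes). That list had mean log2 signals of 5.33 to 5.59 in EGF arrays, against 7.38 to 8.07 in untreated arrays. Whether that marker list has a part in the fall of Lair1 was not tested.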

How the data were processed

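The authors deposited log2 signals per transcript cluster of a mouse whole-transcript array for 8 samples; the log2 scale was taken from the values and the header of the second table, and no label or header states the centring. The submitters' processing notes name RMA, affy and limma. The authors' second deposited table holds, per the file headers, log2 averages, p-values and false discovery rates. Clusters were named from the platform annotation updated through RefSeq (GRCm38.p6, names only); 439 genes with several clusters were represented by the one with the highest mean. All 30738 genes were fitted with limma 3.58.1 in R 4.3.3 (lmFit, eBayes, two-sided), with a threshold of 0.05 after Benjamini-Hochberg adjustment. No filter or further normalization was applied, and 4 arrays per group limit the precision. The fit was checked on simulated data in which few genes changed and group medians were not shifted, so that check does not bear on the scaling. Members, classes and lists were chosen with earlier results of these data known. All array values are given for collagen genes called at 2-fold or more and the other chain of their pair, and for Col4a5, Col4a6 and some list genes chosen after their values were seen; of each list the 10 largest changes and P4ha1, Plod2, Lox and Serpinh1 are named. Marker genes, and the rest of the biosynthesis list in the closing observations, are named after their values were seen. Same-numbered replicates did not deviate together (r of -0.0843, -0.00321, -0.0542 and -0.0260). Alternatives were 3 scalings, a filter on dim clusters, cluster means, array weights, trend and robust eBayes, a replicate block, leaving out each array, a threshold of 0.01 and treat at 1.5-fold. Software also included pandas 2.3.3 and scipy 1.17.1 under Python 3.11.15, with matplotlib 3.10.9 for plots.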

Additional observations from a re-analysis of the deposited data

Results flagged for a closer look

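In 128 groups of 4 arrays examined (42 collagen genes and 22 genes of the lists), 8 had an array whose gap to its neighbour took up nearly the whole range of the group; chance gives about 1 in 20 groups. Untreated replicate 3 was the low array for Col18a1 (6.92), Col4a2 (7.26), Col2a1 (4.84) and Col22a1 (4.51). Untreated replicate 4 was the high array for Col13a1 (4.57) and Col27a1 (5.24). EGF replicate 2 was the low array for Col6a3 (4.56), and EGF replicate 1 for P4ha1 (14.37). For Col18a1, Col4a2 and P4ha1 the groups did not overlap with that array included.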

How the results depend on the processing

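Counts of small changes depended on the scaling. A further quantile normalization gave 7 collagen rises, with 0 fibrillar rises and 5 rises and 10 falls among other collagens. Centring gave 6 rises and 22 falls (fibrillar 0 and 8, other 4 and 10), and cyclic loess 6 and 23 (fibrillar 0 and 8, other 4 and 11). With dim clusters filtered out, fewer genes were tested and 11983 of all genes were called, with 7 collagen rises and 9 falls (fibrillar rises 0, other 5 and 2). Treat at 1.5-fold called 5190 of all genes, 3 collagen rises and 6 falls (fibrillar 0 and 3, type IV 0 and 1, other 3 and 2) and 5 rises and 8 falls of receptors and partners. At a threshold of 0.01 there were 0 fibrillar rises and 3 falls of other collagens. Fibrillar rises numbered 2 with array weights, 0 with the replicate block and 0 to 2 when single arrays were left out. Unequal chain pairs numbered 0 with the replicate block and 0 to 0 when single arrays were left out, since the smallest p there is 0.125 and 0.0571. Among genes with a call at either scaling, the sign of Col19a1 turned to -0.04, -0.025 and -0.032 under quantile normalization, centring and loess. That of Col2a1 turned to -0.16, -0.18 and -0.18, and that of Col9a2 to -0.15 under loess. Col11a2, Col15a1, Col17a1, Col23a1 and Col27a1 also turned negative under other scalings, with no call at any scaling. The replicate block ended 4 other calls (Col19a1, Col24a1, Col26a1 and Col4a3). Signals near the array medians limit what can be seen in 26 collagen genes.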

Other observations

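The genes of the collagen biosynthesis list not yet given also went both ways. Among enzymes and helpers of the endoplasmic reticulum, P4hb, the partner subunit of prolyl 4-hydroxylase, averaged 15.13 ± 0.01 in EGF and 14.24 ± 0.029 in untreated arrays (mean log2 ± SD, n = 4 each) and rose by 0.89 ± 0.053 (SE; limma adjusted p = 2.67e-07). Colgalt1 rose by 1.37, P3h3 by 1.05, Crtap by 0.68, Plod1 by 0.65, Ppib by 0.54, Fkbp14 by 0.52 and P3h1 by 0.30 (log2), beside the falls of P4ha3, P3h2 and Serpinh1 and the missing call of Plod2 given above. Of the export genes, Sec23a rose by 0.82 and Mia3 did not pass (0.10). Creb3l1, a transcription factor known to drive type I collagen in bone, fell by 1.3 ± 0.16 (SE), with 8.56 to 9.28 in EGF arrays, against 9.98 to 10.48 in untreated arrays. Of the genes acting outside the cell, Bmp1 rose by 0.98 and Tll2 by 0.26, while Tll1 fell by 1.43, Sparc by 1.08, Loxl3 by 0.95, Pcolce by 0.78 and Loxl4 by 0.31, and Adamts3 did not pass (0.065).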
